A study of Mus musculus with 8 samples.

Results

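The colony-stimulating factors are secreted proteins that control the growth, survival and activity of macrophages and granulocytes, and the genes examined here were their 3 ligands and 4 receptor chains in mouse. The members were taken by gene name on the arrays: Csf1, Csf2 and Csf3 for the ligands, and Csf1r, Csf2ra, Csf2rb and Csf3r for the receptor chains. All 7 genes were on the arrays, among 27499 named genes, and all 7 were among the 20080 genes tested, which include transcripts without a symbol. Together they had 13 of the 56605 probes, of which 12 passed the filter of being well above background on 2 or more arrays.

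Csf1 (macrophage colony-stimulating factor, M-CSF) signals through Csf1r, a receptor tyrosine kinase that macrophages need to survive. Csf2 (GM-CSF) binds the alpha chain Csf2ra, which pairs with the beta-common chain Csf2rb, and signals mainly through JAK2 and STAT5. Csf3 (G-CSF) acts through Csf3r and STAT3, and is best known for raising neutrophil output from bone marrow. Activated macrophages are a classical source of Csf2 and Csf3.

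Transcripts were measured with 1-colour oligonucleotide arrays in RAW264.7 cells, a macrophage line from a tumour that Abelson leukaemia virus induced in a male BALB/c mouse. In the melatonin arm, cells were given melatonin at 1 mM for 1 h, then no LPS or 100 ng/ml of LPS for 1, 3 or 5 h. In the other arm, cells without melatonin had no LPS or the same dose of LPS for 1, 3 or 5 h. LPS is the endotoxin of Gram-negative bacteria, sensed by Toll-like receptor 4, and melatonin is the pineal hormone. Each of the 8 conditions had 1 array, and all 8 arrays lay on 1 slide, with each arm in its own row and each LPS time in its own column. LPS time therefore cannot be told apart from slide column or from hours in culture, and melatonin cannot be told apart from slide row. Conditions followed the sample titles. The treatment field of the melatonin samples disagrees with them, giving an LPS time 1 step later for 3 samples and none for the sample titled 5 h. Csf2 and Csf3 were not well above background on the array titled melatonin without LPS, but were on the arrays titled LPS. Both are among the genes examined here, so their signal is no check of the titles. It also cannot tell which array is 1, 3 or 5 h.

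Levels are log2 of the processed signal, less the 75th percentile of its array, so 0 marks that percentile and 1 unit is a 2-fold step. Probes differ in their binding, so levels were compared for 1 probe across arrays and not between genes. The 75th percentile of the processed signal was 718.7 to 846.1 on the melatonin arrays and 659.1 to 830.1 on the arrays without it, and 46.96% to 52.99% of probes were well above background. Of 8 macrophage markers, 7 were well above background on all 8 arrays and Mertk on none. None of 3 fibroblast markers was well above background on any array, and no B cell marker (of 3) and no epithelial or endothelial marker (of 4) was so on all 8. Of 4 neutrophil markers, Elane was well above background on all 8 arrays, Mpo on 4, and Ly6g and Ngp on none. Of 4 T cell markers, Cd3e and Cd4 were so on all 8, Cd3g on 1 and Cd8a on none.

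For 4 of the 7 genes RefSeq (GRCm38.p6) promoter sequence was at hand: Csf1, Csf2, Csf2ra and Csf3r. The 250 bases before the annotated start of the ligand genes Csf1 and Csf2 are shown because both genes rose with LPS. Both genes lie on the minus strand, at chr3:107760470-107760719 and chr11:54249900-54250149, and capitals mark the matches to the motifs searched.
Csf1: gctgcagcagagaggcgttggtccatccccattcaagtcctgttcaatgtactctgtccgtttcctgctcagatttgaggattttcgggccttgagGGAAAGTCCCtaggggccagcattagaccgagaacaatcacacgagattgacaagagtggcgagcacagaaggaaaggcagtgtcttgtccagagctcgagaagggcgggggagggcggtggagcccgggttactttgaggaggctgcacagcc
Csf2: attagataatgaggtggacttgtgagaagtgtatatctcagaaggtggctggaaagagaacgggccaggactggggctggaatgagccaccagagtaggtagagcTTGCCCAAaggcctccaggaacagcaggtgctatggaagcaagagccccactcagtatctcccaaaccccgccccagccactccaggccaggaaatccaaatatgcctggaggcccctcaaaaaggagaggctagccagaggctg

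Motifs were searched on both strands. The Csf1 window held a match to the NF-κB consensus, GGGACTTTCC on the opposite strand, from position -154 to -145 relative to the start, and 7.25% of 32851 promoters of the same length held that consensus. The Csf2 window held a C/EBP match (TTGCNNAA, in 9.56% of promoters) from -145 to -138. None of the CK-1 element (GAGATTCC, in 0.755%), AP-1 (TGANTCA, in 6.75%) and TATA box (TATAAA, in 12.4%) letters was found in either window. The Csf3r window held an NF-κB consensus match, GGGACCTTCC on the opposite strand, from -129 to -120, and the Csf2ra window held no match to any of the 5 motifs. A match of letters is a description and no evidence of binding. The absence of a match holds only for the 250 bases before the annotated start, and other stretches of these genes were not searched.

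The first comparison asked how the genes change over time after LPS, with both arms together. With LPS the 3 ligand genes rose and 3 of the 4 receptor chains changed, Csf2ra rising and Csf1r and Csf2rb falling. A gene counts as called where its Benjamini-Hochberg adjusted p was under 0.05 in an additive limma model over all 20080 genes, in which the arms stand in for replicates of an LPS time. At 1 h, 2 members rose and none fell, where 1.96% of all genes were called, 1.67% higher. The 2 were Csf2 and Csf3, which were well above background only on arrays with LPS. They passed the filter on dim probes through those arrays alone, so their calls at any LPS time are not independent of that filter. At 3 h, 4 rose and 2 fell, where 33.7% of all genes were called, 18.6% higher and 15.1% lower. At 5 h, the 4 that rose and the 2 that fell were the genes called at 3 h, where 44.2% of all genes were called, 24.8% higher and 19.4% lower. With quantile normalization the share of higher genes among all calls was 42.3% at 3 h and 43.2% at 5 h, against 55.2% and 56.2% with the 75th percentile.

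**Figure D1:**
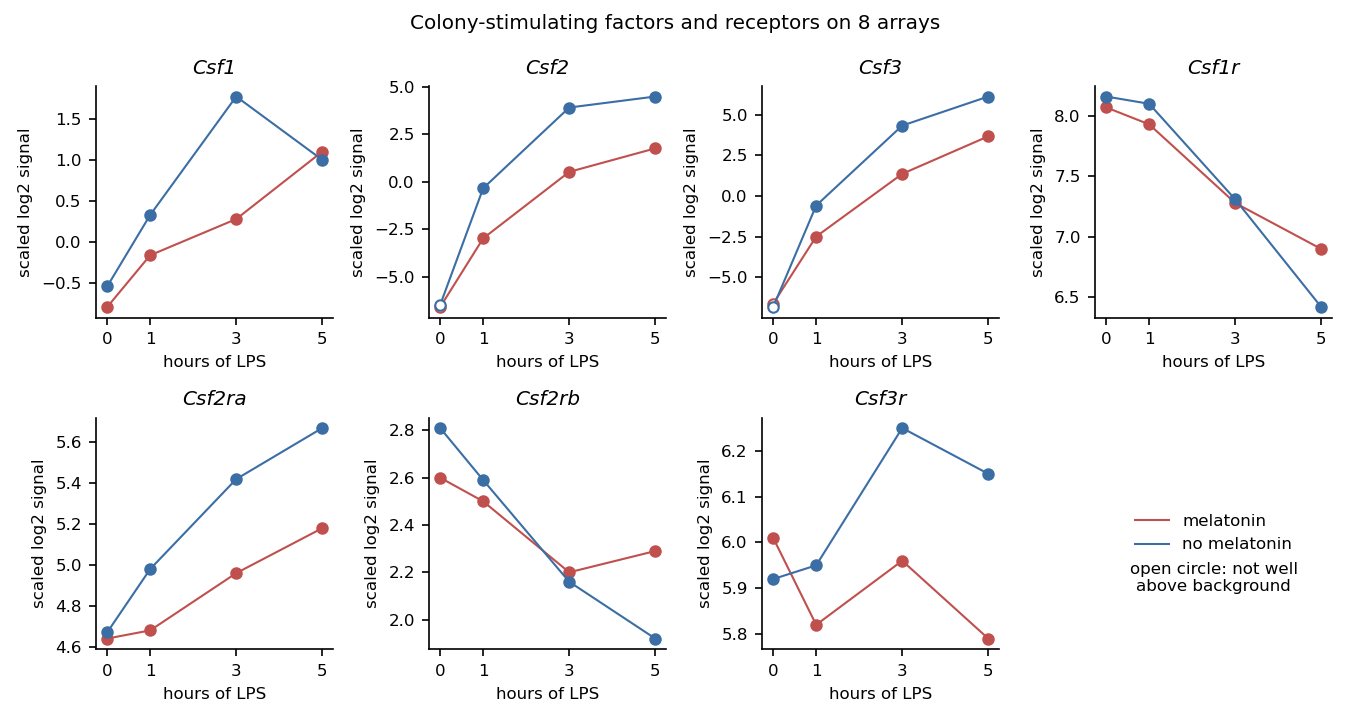
Scaled log2 signal (relative to the array's 75th percentile) of the 7 genes against hours of LPS, with 1 point per array, melatonin in red and no melatonin in blue. The open circles mark Csf2 and Csf3 at 0 h, not well above background in either arm, and the red points of both genes lie below the blue ones at 1, 3 and 5 h.

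Csf2 was measured by 1 probe, on mm9 chromosome 11 at 54060772 to 54060799 on the minus strand, a listed span of 28 bases for a 60-base probe. Its signal was -6.59, -2.97, 0.53 and 1.77 at 0, 1, 3 and 5 h on the melatonin arrays. It was -6.48, -0.33, 3.92 and 4.50 at the same times on the arrays without melatonin. Both 0 h arrays were not well above background, and every array with LPS was above both of them. Because the 0 h level has only a bound, the rise is given against the lowest signal among probes well above background on each 0 h array. On that basis, over both arms, Csf2 was at least 7.38-fold higher at 1 h, at least 108-fold at 3 h and at least 204-fold at 5 h. The limma fit used the measured 0 h signals instead, and gave adjusted p = 0.0397, 0.00122 and 0.000588 at these times. Against the common floor, the highest such signal of any of the 8 arrays (-4.02), the rises were 5.18-fold, 76.1-fold and 143-fold. With that floor the adjusted p was 0.338 at 1 h, 0.0148 at 3 h and 0.008 at 5 h (limma). The step between 1 h and 3 h was 3.88 on the log2 scale (SE 0.74, adjusted p = 0.0246). The further step to 5 h was 0.91 (SE 0.74, adjusted p = 0.596), so it did not pass the test.

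Csf3, also with 1 probe (mm9 chromosome 11, 98564614 to 98564673, plus strand), followed the same course. Its signal was -6.62, -2.49, 1.37 and 3.68 at 0, 1, 3 and 5 h with melatonin. Without melatonin it was -6.83, -0.58, 4.34 and 6.13. Like Csf2, it was not well above background on either 0 h array and climbed at each later time in both arms. Csf3 was at least 8.0-fold higher at 1 h, at least 167-fold at 3 h and at least 695-fold at 5 h. The fit on the measured 0 h signals gave adjusted p = 0.031, 0.000885 and 0.000368 at these times (limma). Against the common floor the rises were 5.62-fold, 118-fold and 488-fold, with adjusted p = 0.266, 0.00984 and 0.00414 (limma). The step between 1 h and 3 h was 4.39 (SE 0.71, adjusted p = 0.0165) and that between 3 h and 5 h was 2.05 (SE 0.71, adjusted p = 0.285). The calls of both genes at 3 h and 5 h held in all 15 alternative settings that could be computed. At 1 h they held in 5 of 15, and the adjusted p was highest under the common floor. The 1 h calls were also lost with normexp background correction, with no filter on dim probes and without an intensity trend. Leaving out any single array with LPS lost them too.

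Csf1, by the probe that stands for the gene (mm9 chromosome 3, 107544333 to 107544392, minus strand), was detected on all 8 arrays and rose by far less. Its signal was -0.79, -0.16, 0.28 and 1.10 with melatonin at 0, 1, 3 and 5 h. It was -0.54, 0.33, 1.77 and 1.00 without melatonin. By this probe the highest value was at 5 h with melatonin and at 3 h without it, whereas the other 2 Csf1 probes were highest at 5 h in both arms. Over both arms Csf1 rose by 1.69 log2 at 3 h (SE 0.36, adjusted p = 0.0169, limma) and by 1.71 at 5 h (SE 0.36, adjusted p = 0.0118). At 1 h the change was 0.75 (SE 0.36, adjusted p = 0.419). The calls were lost when the array with neither melatonin nor LPS was left out (adjusted p = 0.105 at 3 h and 0.0754 at 5 h), and the 5 h call also when the melatonin array at 5 h was.

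**Figure D2:**
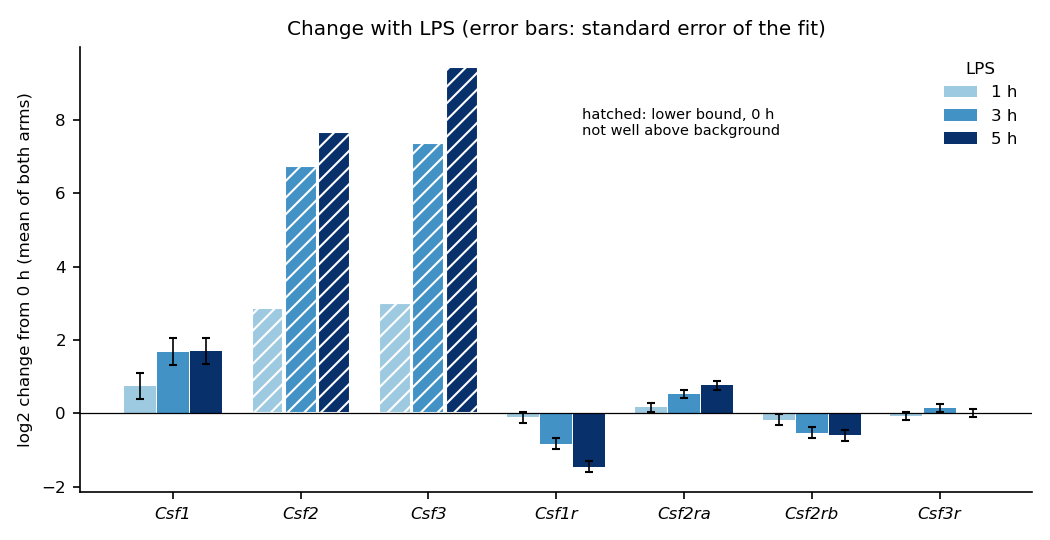
Log2 change from 0 h at 1, 3 and 5 h of LPS for each gene, over both arms (2 arrays against 2), with the standard error of the fit as error bars. Hatched bars are lower bounds for Csf2 and Csf3 against the floor of the 0 h arrays, at least 204-fold and 695-fold at 5 h; Csf1r and Csf2rb lie below 0 at each time.

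Csf1r had the largest change of the 4 receptor genes at 3 h and 5 h of LPS. Its signal was 8.07, 7.93, 7.28 and 6.90 with melatonin and 8.16, 8.10, 7.31 and 6.42 without. The 0 h and 1 h arrays were high, and the 4 arrays at 3 h and 5 h lay below all of them. Csf1r fell by 0.82 log2 at 3 h (SE 0.15, adjusted p = 0.0116, limma) and fell by 1.45 at 5 h (SE 0.15, adjusted p = 0.00138), which held in all 16 alternatives at 5 h and in 13 at 3 h. At 1 h the change was -0.10 (adjusted p = 0.841). A second Csf1r probe fell by 0.88 at 3 h and fell by 1.37 at 5 h (SE 0.11 each, adjusted p = 0.00291 and 0.000513 over 30430 probes).

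The 2 chains of the GM-CSF receptor moved in opposite directions. Csf2ra, the alpha chain that gives the receptor its specificity for GM-CSF (probe on mm9 chromosome 19, 61300336 to 61300395, minus strand), measured 4.64, 4.68, 4.96 and 5.18 with melatonin and 4.67, 4.98, 5.42 and 5.67 without. It climbed at each time in both arms. The change was 0.53 log2 at 3 h (SE 0.12, adjusted p = 0.019, limma) and 0.77 at 5 h (SE 0.12, adjusted p = 0.0043). The 5 h call held in all 16 alternatives, and the 3 h call was lost under quantile normalization, with the deposited table and when either of 2 arrays lacking melatonin (0 h, 3 h) was left out.

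Csf2rb, the signalling chain shared by the GM-CSF, IL-3 and IL-5 receptors (probe on mm9 chromosome 15, 78181168 to 78181227, plus strand), measured 2.60, 2.50, 2.20 and 2.29 with melatonin. Without melatonin it measured 2.81, 2.59, 2.16 and 1.92. The 4 arrays at 3 h and 5 h lay below the 4 arrays at 0 h and 1 h. Csf2rb fell by 0.53 log2 at 3 h (SE 0.15, adjusted p = 0.0391, limma) and fell by 0.60 at 5 h (SE 0.15, adjusted p = 0.0205), of which the 3 h call held in only 7 of 16 alternatives and the 5 h call in 14. Of its other 3 probes, one fell by 0.67 at 5 h (adjusted p = 0.0278 over all probes) and also lists transcripts of the neighbouring Csf2rb2, one changed by -0.26, which did not pass the test, and one was not well above background on any array.

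**Figure D3:**
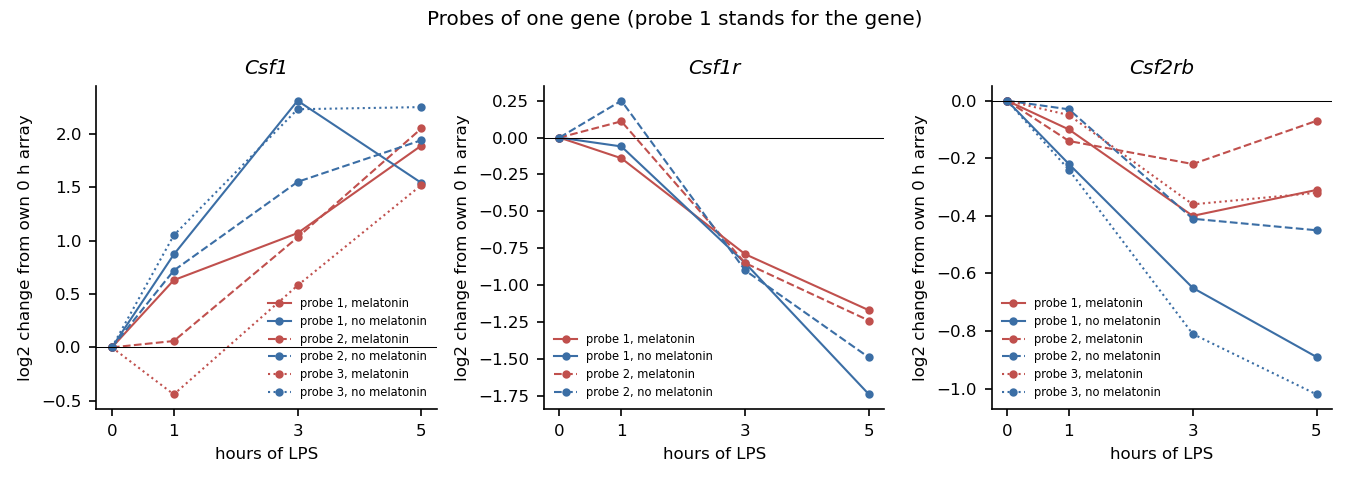
Log2 change from the 0 h array of the same arm for each probe of Csf1, Csf1r and Csf2rb that was well above background on at least 2 arrays, against hours of LPS (red melatonin, blue no melatonin, 1 line style per probe). Probes 2 and 3 of Csf1 were not well above background on the melatonin arrays at 0 h and 1 h; both Csf1r probes fell in both arms at 3 h and 5 h.

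Csf3r, the G-CSF receptor, passed no test of LPS. Its probe signal (mm9 chromosome 4, 125721478 to 125721537, plus strand) was 6.01, 5.82, 5.96 and 5.79 with melatonin and 5.92, 5.95, 6.25 and 6.15 without, a range of 0.45 log2 units over the 8 arrays. The change was 0.14 at 3 h (SE 0.11, adjusted p = 0.364, limma) and 0.01 at 5 h (SE 0.11, adjusted p = 0.96). With quantile normalization it was -0.30 at 5 h (adjusted p = 0.0406), so the sign depended on the scaling. The last 30 bases of the 60-base probe are shown because they recur elsewhere, with the 16 recurrent bases in capitals.
Csf3r probe, bases 31 to 60: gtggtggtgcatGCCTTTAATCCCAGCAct

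The 16 capital bases were in 7 of 32851 RefSeq promoter windows on either strand, and stretches of 16 bases from anywhere in this probe were in 22 windows. For the other 12 member probes that count was at most 3 windows. The probe shared 20 bases with 2 probes of other genes, whose mean scaled log2 signals were 3.63 and 6.27, and no other member probe did so. These letters resemble the start of B1, an abundant short repeat of the mouse genome. How much of the signal came from other transcripts was not tested, so the Csf3r values are those of the probe.

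Between 1 h and 3 h of LPS, 3 members changed, Csf2 and Csf3 rising and Csf1r falling by 0.72 log2 (SE 0.15, adjusted p = 0.032, limma), where 15.2% of all genes were called, 8.36% higher and 6.8% lower. The share of higher genes among all calls in that comparison was 55.2%, against 42.8% with quantile normalization. Between 3 h and 5 h no member passed the test, where 0.0946% of all genes were called, 0.0349% higher and 0.0598% lower (19 genes by limma, 2934 at an unadjusted p under 0.05), 36.8% of them higher, against 25.8% with quantile normalization. The unadjusted p of Csf1r (change -0.64) was 0.00614 and that of Csf3 (change 2.05) was 0.0286 in that comparison.

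The second comparison asked how melatonin altered these transcripts, with and without LPS. In the fit over the 4 matched times, Csf2, Csf3 and Csf2ra were called lower with melatonin, and no member was called higher. That made 3 of 7 members called, where 40.6% of all genes were called, 25.3% lower and 15.3% higher, so the count itself is near the background. Of the 20080 genes, 40 had a lower fitted melatonin difference than Csf2, 98 a lower one than Csf3 and 2198 a lower one than Csf1, in a fit that includes the 0 h arrays on which Csf2 and Csf3 were not well above background. With quantile normalization 52.7% of all called genes were higher with melatonin, against 37.7% with the 75th percentile.

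Without LPS the Csf2 signals of the arms were both below the level called well above background, so melatonin could be read only where LPS was present. Csf2 was lower with melatonin, with log2 differences of -2.64 at 1 h, -3.39 at 3 h and -2.73 at 5 h, which is 6.22-fold, 10.5-fold and 6.63-fold lower, with 1 array against 1 at each time. At 5 h with melatonin the signal (1.77) was still below that at 3 h without it (3.92). Counted against the 0 h bound of its own arm, Csf2 was at least 69.6-fold higher at 5 h with melatonin and at least 597-fold without. The fit over all 4 times gave a difference of -2.22 (SE 0.52, adjusted p = 0.0215, limma). On the 6 arrays with LPS alone, a setting added after the values were seen, it was -2.92 (SE 0.17, adjusted p = 0.00814, limma). Over the 16 alternatives the adjusted p was 0.00814 to 0.0839 (limma), with the call held in 8. Among those 8, leaving out either 0 h array gave the same -2.92 as the arrays with LPS alone, so these are not separate checks.

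Csf3 was lower with melatonin too, with log2 differences of -1.91 at 1 h, -2.97 at 3 h and -2.45 at 5 h, or 3.75-fold, 7.82-fold and 5.46-fold. Its signal with melatonin was thus below that without at each of the 3 LPS times. At 0 h the difference was 0.21, with neither array well above background. Against the bound of its own arm it was at least 261-fold higher at 5 h with melatonin and at least 1850-fold without. The fitted difference was -1.78 over all 4 times (SE 0.50, adjusted p = 0.0364, limma) and -2.44 on the 6 arrays with LPS (SE 0.20, adjusted p = 0.00857). Its adjusted p was 0.00841 to 0.127 over 16 alternatives (limma), with the call held in 7. Here too the fits without either 0 h array repeat the one on the arrays with LPS and are not separate checks. The call was lost, as for Csf2, without any single array of those with LPS.

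**Figure D4:**
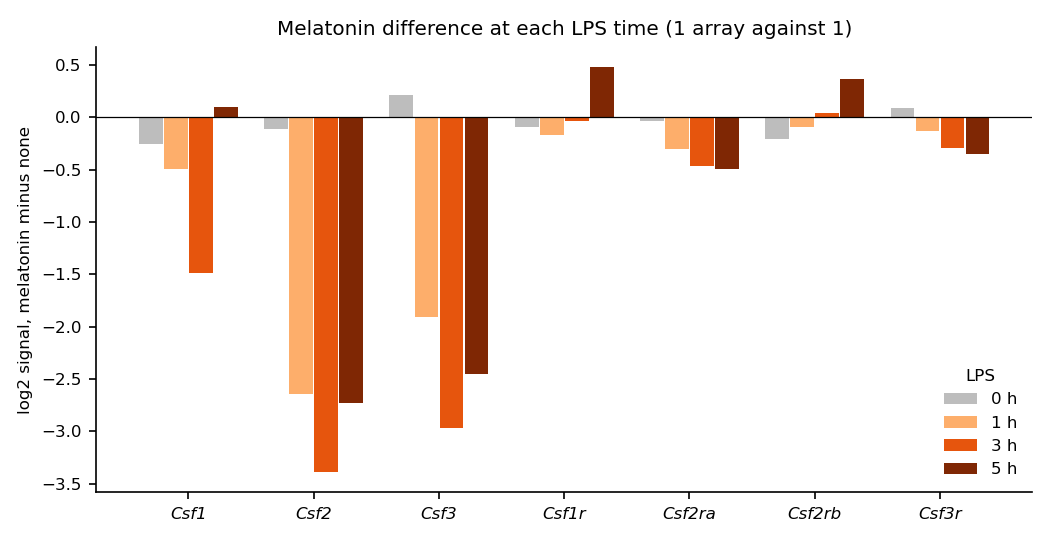
Log2 signal with melatonin minus that without, for each gene at 0, 1, 3 and 5 h of LPS (1 array against 1, no error bar). Csf2 and Csf3 differ by -1.91 to -3.39 at 1, 3 and 5 h, and the bars of Csf1r and Csf2rb at 5 h point up (0.48 and 0.37). The second Csf1r probe, not drawn, differed by 0.09 at 5 h.

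Csf1 showed no uniform melatonin difference. It was -0.25 at 0 h, -0.49 at 1 h, -1.49 at 3 h and 0.10 at 5 h, and the fitted value was -0.53 (SE 0.25, adjusted p = 0.138, limma). The probes disagreed on the call. A second Csf1 probe, listed for another RefSeq transcript of the gene, differed by -1.03 with melatonin (SE 0.20, adjusted p = 0.0138 over all probes), with differences of -0.76, -1.42, -1.27 and -0.65 in time order. The third, which overlaps the second, differed by -0.83 (adjusted p = 0.0762), and the mean of the 3 probes by -0.79 (adjusted p = 0.0328). Both extra probes were not well above background on the melatonin arrays at 0 h and 1 h, nor was the third on the 0 h array without melatonin.

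Among the receptor chains, Csf2ra was lower with melatonin, at -0.32 log2 (SE 0.08, adjusted p = 0.0283, limma), with differences of -0.03, -0.30, -0.46 and -0.49 at 0, 1, 3 and 5 h. That call held in 6 of 17 alternatives. Among them, leaving out either 0 h array gave the same -0.42 as the arrays with LPS alone, so these are not separate checks. The call depended on the scaling, since under quantile normalization and with the deposited table it was lost. Over all alternatives the fitted difference was -0.05 at the least and -0.42 at the most. Csf1r differed by 0.05 (SE 0.11, adjusted p = 0.719) and Csf2rb by 0.03 (SE 0.10, adjusted p = 0.844). For both, the value at 5 h was higher with melatonin (0.48 and 0.37), and the 3 h values were within 0.04 of each other. At 5 h the second Csf1r probe differed by only 0.09. The other Csf2rb probes well above background differed by 0.27 and 0.24 (1 array against 1). Csf3r differed by -0.17 (SE 0.08, adjusted p = 0.128; 0.05 with quantile normalization), and by -0.26 on the 6 arrays with LPS (SE 0.06, adjusted p = 0.03).

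The third comparison asked whether the melatonin difference with LPS, averaged over 1, 3 and 5 h, was unlike that without LPS. No member passed, where 0.00498% of all genes were called (1 gene by limma, 754 at an unadjusted p under 0.05). The term was -2.81 for Csf2 (SE 0.34, unadjusted p = 0.000341, adjusted p = 0.439) and -2.65 for Csf3 (SE 0.41, unadjusted p = 0.00116, adjusted p = 0.624). Csf2 passed without the melatonin array at 1 h (adjusted p = 0.0449), and Csf3 without either array at 1 h (0.0358 and 0.0402). For both genes the 0 h signals entering the term were not well above background. Csf1 had a term of -0.38 (SE 0.60, adjusted p = 0.939).

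Genes whose course over the 8 arrays was most like that of a member were found by the root mean square difference of log2 values centred per gene. For Csf2 these were Il1b, the interleukin-1 beta gene (0.60), Csf3 (0.78) and Ptgs2, the inducible cyclooxygenase (0.79). For Csf3 they were Csf2 (0.78), Il1a (0.95) and Ptgs2 (1.04). Csf1 was closest to D7Ertd183e (0.23), Nod2 (0.26), a sensor of bacterial peptidoglycan, and 9930017N22Rik (0.26). The nearest to Csf1r were Sh3bp1 (0.03), Pde4a (0.05) and Erp29 (0.06), and those to Csf2ra were Otud5 (0.05), Atxn7 (0.05) and A530006G24Rik (0.06). For Csf2rb they were Smc3 (0.05), Ppcdc (0.05) and Mmut (0.06), and for the Csf3r probe Slc38a9 (0.03), Pth2 (0.04) and Dnase2a (0.04). The small values for the receptor chains go with their small ranges (0.45 to 1.74 log2 units, against 11.1 for Csf2 and 12.96 for Csf3).

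The rest of the pathway was followed through 5 gene lists. Whether the calls of list genes, with LPS or with melatonin, hold under quantile normalization was not tested. The other ligands that use these receptors were at or near background: no probe of Il34, the second ligand of Csf1r, or of Il5 was well above background on any array, and Il3 was so on 1 array, that with melatonin at 5 h (-3.65). Of the 6 genes of this list 3 were tested and 1 was called, Csf2rb2, the mouse beta chain specific for IL-3. It was lower at 3 h and 5 h, where 15.1% and 19.4% of all genes were lower. Csf2rb2 measured 1.36, 1.19, 0.39 and 0.28 with melatonin at 0, 1, 3 and 5 h, and 1.30, 1.08, 0.22 and -0.04 without. It fell by 1.03 log2 at 3 h (SE 0.10, adjusted p = 0.00179, limma) and fell by 1.21 at 5 h (SE 0.10, adjusted p = 0.000703), as its neighbour Csf2rb did on a smaller scale. The median change of the 3 tested genes at 5 h was 0.22, against 0.08 over all genes.

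Feedback inhibitors of the SOCS family (Cish, Socs1, Socs2 and Socs3) rose. Of 8 brakes on receptor signalling, 2 rose at 1 h, where 1.67% of all genes rose. At both 3 h and 5 h, 4 rose and 1 fell. Of all genes, 18.6% rose and 15.1% fell at 3 h, and 24.8% and 19.4% at 5 h. The list had a median change of 1.14 log2 at 5 h against 0.08 over all genes. Cish, a STAT5 target that restrains cytokine receptors, measured -3.97, 0.05, 4.33 and 4.07 with melatonin and -3.05, 2.41, 5.30 and 4.46 without. Its change was 4.74 at 1 h and 8.33 at 3 h (SE 0.44 each, adjusted p = 0.00861 and 0.000367, limma). Socs3, the inhibitor of G-CSF receptor signalling, measured 1.00, 4.29, 6.17 and 6.03 with melatonin and 1.30, 5.09, 6.38 and 6.03 without. It rose by 3.54 at 1 h and 5.12 at 3 h (SE 0.18 each, adjusted p = 0.00126 and 0.000142). Inpp5d, the phosphatase SHIP1, fell by 1.72 at 3 h (SE 0.20, adjusted p = 0.00305). With melatonin 3 of the 8 were lower and none higher, where 25.3% of all genes were lower, among them Cish at -1.16 (SE 0.31, adjusted p = 0.0305) and Ptpn6, the phosphatase SHP-1, at -0.74 (SE 0.11, adjusted p = 0.00683).

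The 18 kinases, adaptors and STATs of the receptors moved both ways and had a median near that of all genes. None changed at 1 h, where 1.96% of all genes were called. At 3 h, 4 rose and 5 fell, where 33.7% of all genes were called. At 5 h, 6 rose and 4 fell, where 44.2% of all genes were called. The median at 5 h was 0.07, against 0.08 over all genes. Jak2, the kinase bound to Csf2rb, rose by 1.40 at 5 h (SE 0.13, adjusted p = 0.00101, limma). Fes fell by 1.38 (SE 0.12, adjusted p = 0.000807) and Sos1, an exchange factor for Ras, fell by 0.91 (SE 0.15, adjusted p = 0.00569). With melatonin 7 were lower, where 25.3% of all genes were, among them Lyn (-0.57, SE 0.08, adjusted p = 0.00509). The 2 that were higher, where 15.3% of all genes were, were Sos1 (0.78, SE 0.11, adjusted p = 0.00535) and Pik3r1 (0.50, SE 0.12, adjusted p = 0.0247).

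Of 8 genes that regulate Csf1r transcription or shed the receptor from the cell surface, none changed at 1 h (all genes 1.96%). Of the 8, 5 rose at 3 h and 7 at 5 h, where 18.6% and 24.8% of all genes rose, while Csf1r itself fell. The median was 0.74 log2 at 5 h, against 0.08 over all genes. Rhbdf2, which brings the sheddase Adam17 to the surface, rose by 1.76 at 3 h and 1.96 at 5 h (SE 0.19 each, adjusted p = 0.00251 and 0.00119, limma). Ets2 rose by 1.40 and 1.42 (SE 0.10 each, adjusted p = 0.000808 and 0.000504). Spi1, the gene of PU.1 and the main activator of Csf1r, rose by 1.22 at 3 h (SE 0.22, adjusted p = 0.0112), and Adam17 by 1.06 (SE 0.11, adjusted p = 0.00201). With melatonin 4 were lower, where 25.3% of all genes were, led by Adam17 (-0.72, SE 0.08, adjusted p = 0.00337) and Ets2 (-0.55, SE 0.07, adjusted p = 0.00465). Only Cebpa was higher (1.20, SE 0.31, adjusted p = 0.0282), where 15.3% of all genes were.

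Of 8 RNA-binding proteins that bind AU-rich or stem-loop elements of cytokine messages such as Csf2, 2 rose at 1 h (all genes 1.67%). Then 4 rose and 1 fell at 3 h (all genes 18.6% and 15.1%) and at 5 h (24.8% and 19.4%). The median of the 8 at 5 h was 0.31, against 0.08 over all genes. Zfp36 (tristetraprolin), which destabilises Csf2 messages, measured 1.47, 5.35, 3.90 and 4.76 with melatonin and 0.99, 5.91, 4.63 and 5.43 without, so it was highest at 1 h in both arms. It rose by 4.40 at 1 h (SE 0.30, adjusted p = 0.00287, limma), and Zc3h12a (Regnase-1) by 3.57 (SE 0.14, adjusted p = 0.000566). Zfp36l2, of the same family as Zfp36, measured 3.33, 2.90, 0.50 and 0.46 with melatonin and 3.59, 2.61, -0.12 and 0.69 without. It fell by 3.27 at 3 h and fell by 2.89 at 5 h. With melatonin 4 of the 8 were lower and none higher, where 25.3% of all genes were lower, led by Hnrnpd (AUF1) at -0.89 (SE 0.09, adjusted p = 0.00338).

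**Figure D5:**
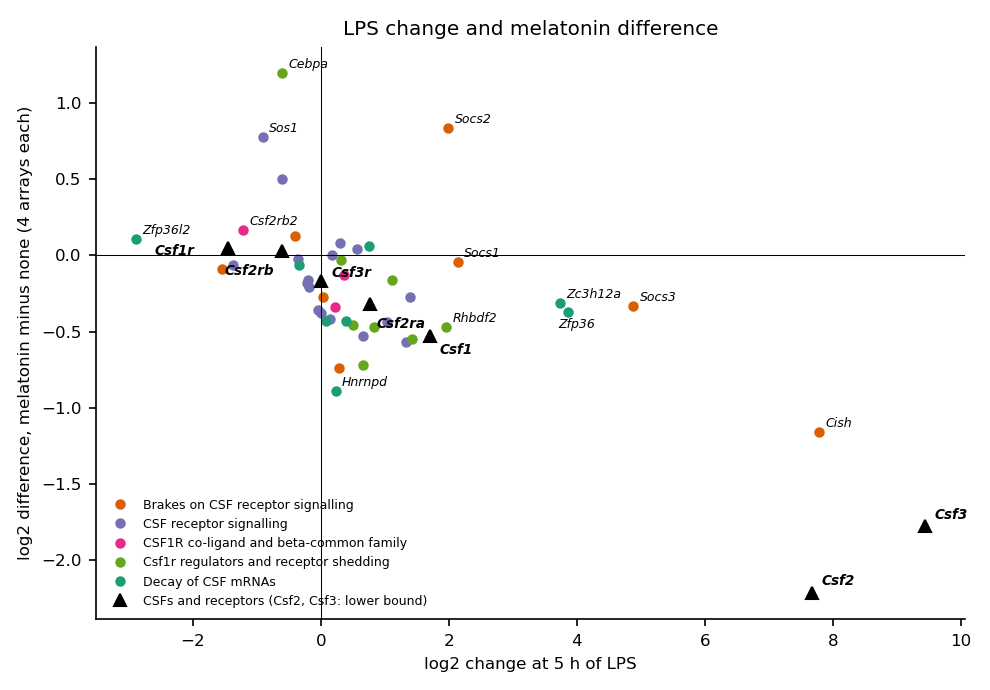
Fitted log2 melatonin difference (4 arrays against 4) against the log2 change at 5 h of LPS, for the 7 genes (triangles) and tested genes of the 5 lists (circles, coloured by list, 1 gene not drawn). Csf2 and Csf3 are drawn at their lower bound on the LPS axis and lie lowest of the genes drawn on the melatonin axis, at -2.22 and -1.78; Cish is the nearest list gene.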

How the data were processed

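Per the file headers, the intensity values are background-subtracted signals from the authors' scanner software, Agilent Feature Extraction 12.0.3.1; mean spot and local background intensities served 1 alternative. The authors' deposited log2 values had column medians of 5.35 to 5.37 on the 8 arrays, and they correlated with the log2 signals at 0.9991 or above. Their software was not given in the sources read. Scanner flags deposited as other columns of 0 or 1 marked spots well above background, saturated (none) and outlying. Probe coordinates are on mm9.

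Of 62976 spots, the 3671 controls and any outliers were dropped, and repeated spots of 1 probe were averaged. A probe entered if well above background on at least 2 arrays (30430 probes), and each gene was represented by its probe of highest mean. Symbols came from the files, updated through RefSeq for 1535 probes. R 4.3.3 and limma 3.58.1 fitted LPS time (4 levels) and melatonin with an intensity trend (3 residual degrees of freedom), and a further melatonin by LPS term (2). Tests were 2-sided. With 1 array per condition, p-values reflect spread between arrays that may be technical and that includes any change of the melatonin effect over time; single-time differences have no test. The fit was tested on simulated data. The number of arrays limits the precision.

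The members and lists were chosen with earlier results of these data known. Of each list, up to 2 genes with the largest rise and 2 with the largest fall among those called in a comparison could be named; examples are given, and 1 gene is counted but not reported here. Alternatives were quantile normalization, normexp background correction (offset 50), the deposited table, 2 other filters, a common floor, no intensity trend, the mean of probes and leaving out each array.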

Additional observations from a re-analysis of the deposited data

Results flagged for a closer look

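The Csf3r probe moved in opposite directions in the arms under the 75th percentile scaling. With melatonin its change from the 0 h array was -0.19 at 1 h, -0.05 at 3 h and -0.22 at 5 h of LPS. Without melatonin it was 0.03, 0.33 and 0.23 at the same times. It drew attention because every change with melatonin was below 0 and every change without it above 0, a criterion that does not test the difference. With quantile normalization the changes were -0.22, -0.25 and -0.47 with melatonin and -0.08, 0.03 and -0.12 without, so the opposite signs depended on the scaling. The melatonin by LPS term of this probe was -0.35 (SE 0.12, unadjusted p = 0.0299, limma adjusted p = 0.908), and the 20 bases the probe shares with 2 probes of other genes apply to these values too.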

How the results depend on the processing

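No paired analysis was possible because each condition has 1 array and hence no replicate number to pair; the fits already match the arms by LPS time. Of the single-gene values of the members under all alternatives, 639 kept their direction and their side of the threshold, 86 lost a call, 11 gained one and 27 changed sign, 26 of them called in neither setting. The exception was Csf3r at 5 h under quantile normalization (-0.30, adjusted p = 0.0406). That change was -0.25 with the deposited table (adjusted p = 0.0624) and -0.06 with normexp (0.633). Csf3r at 3 h was -0.11 with quantile normalization (0.384) and -0.08 with the deposited table (0.543), and its melatonin difference 0.05 with each (0.546 and 0.544). With the mean of probes Csf1r was 0.04 at 1 h (0.913) and -0.03 with melatonin (0.799), and Csf2rb -0.03 with melatonin (0.831). The other 17 sign changes came with 1 array left out, where the adjusted p ran from 0.329 to 0.986 for Csf1 between 3 h and 5 h, from 0.836 to 1 for its melatonin by LPS term, from 0.414 to 0.999 for Csf1r at 1 h, from 0.12 to 0.691 with melatonin and from 0.594 to 1 for its term. It ran from 0.183 to 0.998 for Csf2ra at 1 h, from 0.337 to 0.947 for Csf2rb between 3 h and 5 h and from 0.39 to 0.903 with melatonin, and for Csf3r from 0.58 to 0.995 at 1 h, from 0.0654 to 0.834 at 3 h and from 0.19 to 0.965 at 5 h. The cause was not tested. Leaving out 1 array each leaves fewer residual degrees of freedom.

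The number of members called at 1 h of LPS, 2, was 0 with normexp, with no filter, with the filter on all 8 arrays (which tests 5 members), under the common floor and without an intensity trend, and 0 to 2 with 1 array left out. At 3 h it was 6, and 2 to 6 with 1 array left out (2 when the no-melatonin array at 0 h was left out and 3 when that at 3 h was). At 5 h it was 6 and no alternative moved it by over 1.5 times. Between 1 h and 3 h it was 3, and 1 with no filter, the filter on all 8 arrays, the common floor or no intensity trend, and 0 to 4 with 1 array left out. Between 3 h and 5 h it was 0, and 0 to 1 with 1 array left out (Csf1r without the melatonin array at 5 h). With melatonin it was 3, and 0 with no filter or the common floor, 1 with the filter on all 8 arrays or no intensity trend, and 0 to 4 with 1 array left out. It was 4 on the arrays with LPS only, an alternative chosen after seeing the data. The share of all genes called in that setting is not given here (40.6% in the main setting), so the 4 cannot be read as an excess. For the melatonin by LPS term it was 0, and 0 to 2 with 1 array left out; the term could not be fitted without a 0 h array.

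Over all genes the counts ranged over the alternatives from 94 to 482 at 1 h (393 in the main setting), from 2488 to 6803 at 3 h (6760), from 4465 to 9247 at 5 h (8875), from 323 to 3114 between 1 h and 3 h (3044), from 1 to 33 between 3 h and 5 h (19), from 4110 to 8768 with melatonin (8152) and from 0 to 41 for the term (1). With no filter the median change of all genes at 5 h was 0.283, against 0.082. Csf2 and Csf3 at 0 h lie under the signal that the scanner calls well above background, which limits their LPS changes to bounds.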
